A study of Mus musculus with 6 samples.

Results

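Dividing cells were examined across all lineages of mouse quadriceps muscle, with and without a surgical loss of muscle tissue. A cell counted as dividing when its barcode held at least 500 gene UMIs (unique molecular identifiers, each standing for 1 captured RNA molecule) and at least 2 of the 5 mitotic genes Mki67, Top2a, Cdk1, Birc5 and Ube2c were detected. By this rule, in which the cells were chosen by the UMIs of these 5 genes, 446 of 8258 cells were dividing. Each dividing cell was given the lineage with the highest sum of raw UMIs among Tyrobp and Fcer1g (immune), Pecam1, Cdh5 and Cldn5 (endothelial), Col1a1 and Col3a1 (fibroblast), Rgs5 and Myh11 (mural) and Cdh15 and Myod1 (myogenic). Cells with no UMI of these 11 genes had no lineage, and cells with equal highest sums were tied.

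The 3 groups were uninjured muscle, muscle with a subcritical defect of 2 mm and muscle with a critical defect of 3 mm, all taken at day 7. A critical defect, also called volumetric muscle loss, is one that the muscle does not repair by regeneration. The day is the same in all labels, that of the uninjured muscle included. All animals were male wild-type C57BL/6 mice of 2 to 3 months, and the left quadriceps was digested to single cells. The cells of 4 animals per group were tagged by animal with antibody hashtags, pooled and loaded as 1 library per group, so that group and library cannot be told apart in any comparison between whole libraries. Each hashtag was taken as 1 animal, since the labels do not list which hashtag marks which, and animals are called here by their hashtag number within the group.

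Division passes through DNA replication (S phase), preparation for mitosis (G2) and mitosis (M), and the 5 marker genes are mainly transcribed in late S phase, G2 and M. Resting muscle holds few cycling cells. After injury, macrophages, endothelial cells, fibroblast-like progenitors and satellite cells, the stem cells of muscle fibres, are all known to enter the cycle.

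The libraries held between 4954129 and 7138662 gene UMIs over 2195 to 3161 cells. Dividing cells were deeper than the others, with median UMI counts of 6542, 2861 and 3810 in the uninjured, subcritical and critical libraries against 1774, 1230 and 1523 in the other cells. Depth therefore moves with the rule, and shares are also given after thinning every cell to 1000 UMIs. Cells with several hashtags, which can be 2 cells in 1 droplet, made up 1.59%, 3.70% and 3.61% of dividing cells and 2.77%, 3.69% and 4.04% of the others. Between 10 and 16 barcodes were shared by each pair of libraries, and 0 of them were dividing in both.

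The 5 marker genes chose the cells, so their values are a description. Mki67, which coats mitotic chromosomes, was detected in 84.1%, 48.7% and 60.8% of the dividing cells of the uninjured, subcritical and critical libraries. Top2a, the topoisomerase that untangles replicated DNA, was detected in 82.5%, 68.3% and 69.1%. Ube2c, an enzyme that marks mitotic cyclins for destruction, was found in 65.1%, 73.0% and 71.1%. Birc5 (survivin, a part of the complex that corrects spindle attachment) was found in 66.7%, 71.4% and 81.4%, and Cdk1, the kinase that drives entry into mitosis, in 66.7%, 56.1% and 61.3%. In all the other cells together, each of the 5 genes was detected in between 0.281% and 1.65% of a library. Mki67 and Top2a were thus most often detected in the uninjured library, where the dividing cells were also deepest. Cells just inside the limit, with 2 markers, had a median of 4.00, 3.00 and 2.00 UMIs over the 5 genes, and cells just outside it, with 1 marker, had a median of 1 in every library.

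The promoters of the marker genes are shown because genes of this phase are known to share short elements, CCAAT boxes and the cell cycle element TTTGAA or TTCGAA. The 120 bases before each start (RefSeq, GRCm38.p6, 5′ to 3′ on the gene's strand) are given, with CCAAT (which reads ATTGG on the other strand), TTTGAA (which reads TTCAAA there) and TTCGAA (its own reverse complement) in capitals.
Mki67, chr7:135716380-135716499, minus strand: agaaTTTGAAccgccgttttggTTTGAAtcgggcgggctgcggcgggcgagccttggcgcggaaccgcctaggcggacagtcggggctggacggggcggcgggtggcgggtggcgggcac
Top2a, chr11:99024190-99024309, minus strand: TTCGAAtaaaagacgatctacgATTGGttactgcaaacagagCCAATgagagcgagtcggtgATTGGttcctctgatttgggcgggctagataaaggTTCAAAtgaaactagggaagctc
Cdk1, chr10:69352913-69353032, minus strand: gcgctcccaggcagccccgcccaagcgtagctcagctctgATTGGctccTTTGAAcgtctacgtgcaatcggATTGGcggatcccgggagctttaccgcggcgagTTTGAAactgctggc
Birc5, chr11:117849117-117849236, plus strand: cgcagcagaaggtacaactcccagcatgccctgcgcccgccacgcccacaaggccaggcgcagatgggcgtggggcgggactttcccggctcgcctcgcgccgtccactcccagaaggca
Ube2c, chr2:164769809-164769928, plus strand: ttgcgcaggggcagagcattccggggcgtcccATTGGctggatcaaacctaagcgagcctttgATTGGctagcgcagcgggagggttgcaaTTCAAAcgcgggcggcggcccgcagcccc

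Over the 250 bases before the start, searched on both strands, 4 of the 5 marker promoters held both a TTTGAA or TTCGAA element and at least 2 CCAAT boxes, and the Birc5 window held neither. Of all 32851 promoters in the table, 17.1% held a TTTGAA or TTCGAA element, 10.1% held at least 2 CCAAT boxes and 6.02% held an element together with a CCAAT box. Among the 34 of 40 mitotic spindle and G2/M genes with a promoter in the table, 26.5% held an element and 50.0% held at least 2 CCAAT boxes. For the 25 of 31 DNA replication and S phase genes with a promoter, these shares were 16.0% and 28%. CCAAT and ATTGG can overlap, as they do once in the Ube2c window, and a match is a description of the letters only.

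Dividing cells were more frequent in both injured libraries than in the uninjured library, by an amount that depended on depth. They made up 63 of 2195 cells in the uninjured library, or 2.87% (exact Clopper-Pearson 95% interval 2.21 to 3.66%). In the subcritical library the share was 189 of 2902 cells, or 6.51% (5.64 to 7.47%), and in the critical library 194 of 3161, or 6.14% (5.33 to 7.03%). The intervals cover counting error only. After thinning to 1000 UMIs, which left 1708, 1810 and 2298 cells of sufficient depth, the shares were 1.99%, 5.30% and 3.87%, so the order uninjured, critical, subcritical was kept while the subcritical share moved above the critical interval of 3.12 to 4.74%. Thinned to 500 UMIs the shares were 1.28% (0.849 to 1.84%), 2.00% (1.52 to 2.58%) and 1.52% (1.12 to 2.01%), and the critical and uninjured intervals overlap widely. Requiring 3 markers gave 2.14%, 4.20% and 4.33%, with the 2 injured libraries in the opposite order.

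By count, fibroblasts and immune cells were the 2 largest classes of dividing cells in both injured libraries, and immune cells and cells of no lineage in the uninjured one. In uninjured muscle 34 of 63 dividing cells were immune, 11 endothelial, 2 fibroblast, 1 mural, 14 of no lineage and 1 tied. The subcritical library held 67 immune, 55 fibroblast, 49 endothelial, 6 myogenic and 3 mural dividing cells, and 9 of no lineage. Critical muscle yielded 79 fibroblast, 75 immune, 23 endothelial, 7 mural and 5 myogenic dividing cells, with 4 tied and 1 of no lineage. Fibroblasts were 3.17% (0.387 to 11%), 29.1% (22.7 to 36.1%) and 40.7% (33.7 to 48.0%) of dividing cells in the uninjured, subcritical and critical libraries. Endothelial cells were 17.5% (9.05 to 29.1%), 25.9% (19.8 to 32.8%) and 11.9% (7.67 to 17.3%). The fibroblast intervals of the 2 injured libraries overlap, and the endothelial ones do not. With at least 3 markers the endothelial intervals overlap too, at 23.8% (16.5 to 32.3%) and 14.6% (9.15 to 21.6%). With every cell thinned to 1000 UMIs, fibroblasts were 27.1% of dividing cells in the subcritical and 27.0% in the critical library, so the higher fibroblast share of critical muscle was not kept, while endothelial cells were 27.1% and 13.5%.

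**Figure D1:**
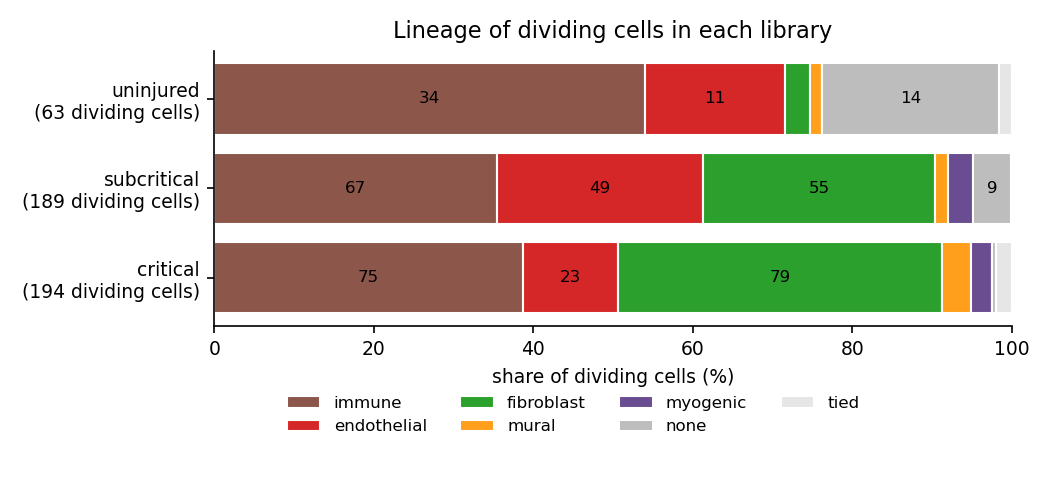
Share of dividing cells in each lineage (horizontal axis, percent) for the 3 libraries, with cell numbers printed in the larger segments. The fibroblast segment holds 2, 55 and 79 cells from top to bottom, and the endothelial segment 11, 49 and 23.

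Set against the size of each lineage, the endothelium had the widest gap between the injured libraries among the 3 lineages with at least 20 dividing cells in each. Of endothelial cells, 0.853% (11 of 1289, interval 0.427 to 1.52%) were dividing in the uninjured library, 9.12% (49 of 537, 6.83 to 11.9%) in the subcritical library and 3.92% (23 of 586, 2.50 to 5.83%) in the critical library. Thinned to 1000 UMIs, the shares were 0.538%, 9.74% and 3.58%. With at least 3 markers the gap was smaller, with 5.40% (3.65 to 7.66%) in the subcritical and 3.41% (2.10 to 5.22%) in the critical library, and the intervals overlap. Dividing fibroblasts were 0.775% (2 of 258), 5.23% (55 of 1052, 3.96 to 6.75%) and 6.11% (79 of 1294, 4.86 to 7.55%) of fibroblasts, and 0.457%, 3.32% and 2.29% after thinning, which turned the order of the injured libraries. Immune cells were dividing in 16.9% (34 of 201, 12.0 to 22.8%), 6.80% (67 of 986, 5.30 to 8.55%) and 8.35% (75 of 898, 6.63 to 10.4%). Thinned, these shares were 8.43%, 5.25% and 6.04%. The uninjured library had the largest dividing share among its immune cells while it held the fewest of them, an order that was lost without the granule-gene cells described next.

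**Figure D2:**
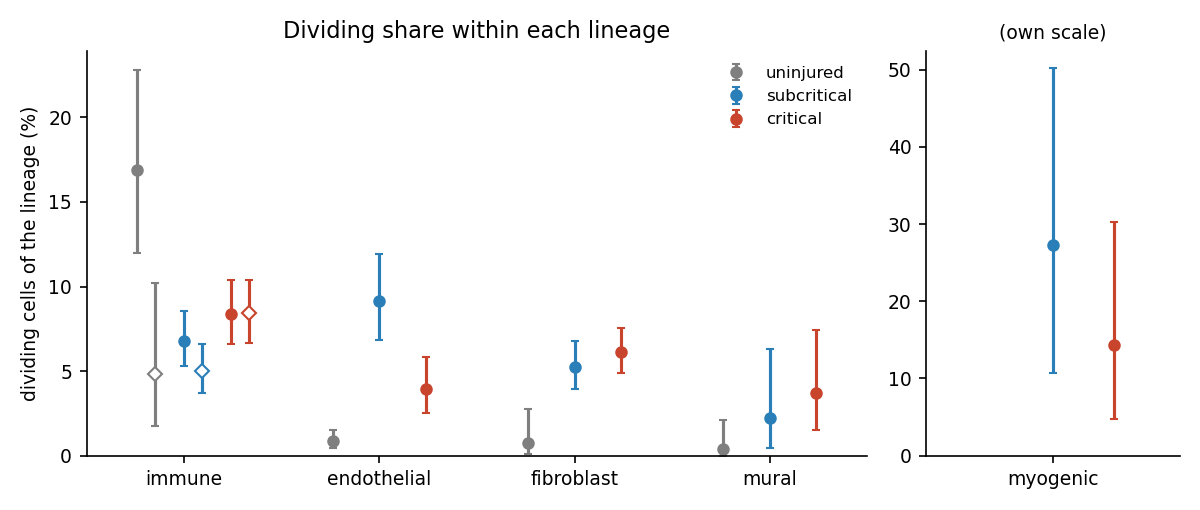
Dividing cells as a percent of all cells of the same lineage (vertical axis), with exact 95% intervals, by library. Open diamonds leave out cells with neutrophil granule genes, and groups under 20 cells are not drawn. The endothelial share is 9.12% in the subcritical and 3.92% in the critical library.

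The dividing immune cells of the uninjured library were mostly not macrophages. Of these 34 cells, 28 (82.4%, interval 65.5 to 93.2%) carried at least 4 of 8 transcripts of neutrophil granule proteins, namely Mpo, Elane, Prtn3 and Ctsg of the primary granules and Camp, Ngp, Ltf and Lcn2 of the secondary granules. These 8 genes were chosen after the data were seen. In the subcritical library 19 of 67 (28.4%, 18.0 to 40.7%) carried them, and in the critical library 0 of 75 (0 to 4.80%). No dividing immune cell carried 2 or 3 of the 8, so the choice of 4 as the limit moved no cell among them. As background, granule proteins are made in sequence by immature neutrophils, which divide in bone marrow, and mature neutrophils do not divide.

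Granule transcripts took a large part of the RNA of these cells. Summed over all dividing immune cells, Elane (neutrophil elastase) stood at 12555, 2943 and 0 CPM (UMIs of the gene per 1000000 gene UMIs) in the uninjured, subcritical and critical libraries. Camp, an antimicrobial peptide, stood at 26240, 9594 and 0 CPM. Mpo, which makes hypochlorous acid, stood at 5889, 1461 and 0 CPM, and the 0 allows at most 12.8 CPM by its exact Poisson interval. The order was the same for these genes, highest in the uninjured library and undetected in the critical one. In the other immune cells of the uninjured library Camp was 14275 CPM, and 48 of 167 of them carried at least 4 of the 8 genes, so granule genes were common there outside the dividing cells too.

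Of the granule-gene cells that could be traced, most came from 1 animal in each library. Of the 28 cells in the uninjured library, 25 traced to replicate 2 and 3 could not be traced, and of the 19 in the subcritical library 10 traced to replicate 1, 1 each to replicates 3 and 4, and 7 to no animal. Of all 49 traced dividing cells of the uninjured library, 44 came from replicate 2, which gave 563 of 947 traced cells. The uninjured values for dividing immune cells therefore rest largely on 1 animal. Leaving out every cell with granule genes gave dividing shares of 1.52%, 5.89% and 6.15% of cells in the uninjured, subcritical and critical libraries. Immune cells were then 18.8%, 28.4% and 38.7% of dividing cells, and 4.80%, 5.01% and 8.41% of immune cells were dividing, so the uninjured share was no longer the highest. Both dividing fibroblasts of the uninjured library were granule-gene cells.

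Some of the 14 dividing cells with no lineage in the uninjured library carried genes of other blood cells. Car2, a carbonic anhydrase of red cell precursors, was detected in 8 of the 14 and reached 124 UMIs in a single cell. Klf1 and Gata1, transcription factors of the red cell lineage, were each detected in 4, and Rhd, a blood group protein, in 4. Vpreb3 and Cd79a, genes of immature B cells, were detected in 5 and 4 cells, with up to 20 and 15 UMIs. Col2a1, a collagen gene and not a blood cell gene, was detected in 2 of the 14, with up to 35 UMIs. Replicate 2 gave 9 of the 14 cells, and 5 were untraced. In the subcritical library the 9 cells with no lineage included 3 with Cd3d and 3 with Lck, both genes of T cells, and 4 with Vpreb3. These genes were also chosen after the data were seen. Where such cells came from was not tested.

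In the injured libraries many of the remaining dividing immune cells carried macrophage genes. C1qa, a subunit of complement C1q, stood at 1441 and 2606 CPM in all dividing immune cells of the subcritical and critical libraries and was not detected in the uninjured ones. Spp1 (osteopontin, secreted by scar-associated macrophages) stood at 8.23, 4446 and 8074 CPM in the uninjured, subcritical and critical libraries. In each injured group replicate 2 was far above the rest in Spp1, as given by animal below. Gpnmb, a glycoprotein of lipid-handling macrophages, stood at 0, 2556 and 2453 CPM. At least 2 of 6 complement-rich macrophage genes, a list added after the data were seen, were detected in 0 of 34, 35 of 67 and 69 of 75 dividing immune cells of the uninjured, subcritical and critical libraries. At least 2 of the 8 general immune genes were detected in 34, 54 and 72 of them. Detection of at least 2 of the 8 scar-associated macrophage genes did not set the libraries apart, at 29, 51 and 70 cells, and it was also met by 80.1% of the other fibroblasts of the uninjured library. Ccr2, the receptor of newly arrived monocytes, was at 0 CPM in the subcritical and 17.3 CPM in the critical dividing cells. A list of 6 monocyte genes went the other way. Without granule-gene cells it summed to 225 CPM in subcritical and 31.2 CPM in critical dividing immune cells. Only 2 of its 6 genes reached 20 CPM on a side, and these 2 were at least 2-fold lower in the critical library. Over all genes 8.95% were lower and 13.1% higher. Ccr2 therefore does not stand for the list, and 2 genes are few to describe it.

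**Figure D3:**
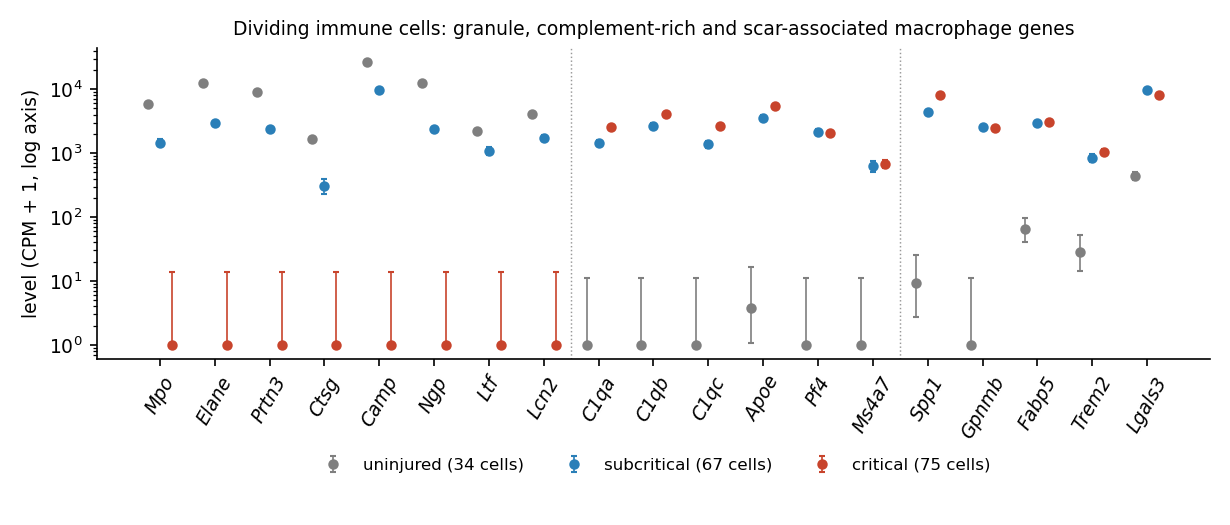
Levels of 19 genes in dividing immune cells (vertical axis, CPM plus 1, log scale; points are sums over cells and bars exact 95% Poisson intervals). Dotted lines part the granule, complement-rich macrophage and scar-associated macrophage genes. The 8 granule genes are undetected in the critical library, and C1qa, C1qb, C1qc, Pf4, Ms4a7 and Gpnmb in the uninjured one.

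Dividing immune cells without granule genes differed from the other immune cells of their own library in more than cell cycle genes. With granule-gene cells left out, 48 dividing and 910 other cells were compared in the subcritical library and 75 and 817 in the critical library. This is the contrast of the selection, so it carries no test. A gene was counted when its CPM differed at least 2-fold (1 CPM added, at least 20 CPM on a side). That held upward for 15.3% and downward for 13.7% of genes in the subcritical library, and for 11.5% and 11.7% in the critical library. Of 7 antigen presentation genes, 6 were lower in the subcritical and 5 in the critical dividing cells, with none higher and medians of -1.59 and -1.83 on the log2 scale against 0.10 and 0.05 over all genes. Cd74, the invariant chain of MHC class II, was 4830 CPM in dividing and 16665 CPM in other cells of the subcritical library, and 4033 and 15381 CPM in the critical library. H2-Ab1, a class II chain, was 1254 against 3861 CPM and 1026 against 3651 CPM.

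Of the scar-associated macrophage genes, 5 of 8 were at least 2-fold higher in dividing cells of the subcritical library and 0 lower (median 1.05). In the critical library 1 of 8 was higher and 0 lower (median 0.62), a share near the 11.5% of all genes. Lgals3 (galectin-3) was 11513 against 4557 CPM in the subcritical library and 8243 against 4411 CPM in the critical library. Spp1 was 5348 against 2593 CPM and 8074 against 3178 CPM, sums over animals that differed widely in dividing cells, as given below. Apoe, a lipid carrier, was lower in dividing cells of both, at 4325 against 23059 CPM and 5457 against 20295 CPM. Csf1r, the receptor of the macrophage growth factor, was 225 against 820 CPM and 347 against 866 CPM. The interferon response list was lower too, with 6 of 8 measured genes at least 2-fold lower in the subcritical and 5 of 10 in the critical library. Cdkn2c, an inhibitor of the G1 kinases, was higher, at 119 against 13.2 CPM and 125 against 10.3 CPM. Cdkn2c and Csf1r are single members that do not stand for their lists. Of 16 measured G1 cyclin, kinase and inhibitor genes, 7 were at least 2-fold higher and 3 lower in the subcritical library. In the critical library 8 of 16 were higher and 0 lower. Of the mitogen receptors and growth factors, 1 of 6 was higher and 2 lower in the subcritical library, and 0 of 7 and 3 in the critical one.

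Hashtags allowed the dividing share of immune cells to be compared between animals. It was 12.6%, 3.55%, 6.32% and 4.39% in subcritical replicates 1 to 4 and 5.32%, 9.44%, 10.3% and 9.91% in critical replicates 1 to 4. The groups overlap, because subcritical replicate 1 was the highest of these 8 animals and critical replicate 1 lay among the subcritical animals. The means were 6.73% ± 4.11 (SD, n = 4) and 8.75% ± 2.32 (SD, n = 4), a difference of 2.03 percentage points (exact two-sided permutation test, p = 0.429, and 0.50 after Benjamini-Hochberg adjustment over 7 tests between animals). Among these 8 animals subcritical replicate 1 also had the most granule-gene cells. Without those cells the subcritical shares were 7.45%, 3.57%, 5.78% and 4.07%, with a mean of 5.22%, and the critical shares 5.32%, 9.44%, 10.4% and 10.0%, with a mean of 8.79%. The difference was then 3.57 points (exact permutation p = 0.0857, adjusted 0.117). It did not pass the threshold of 0.05 either way.

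By the main assignment of hashtags, the endothelial shares of the animals did not overlap between the injured groups. Animals with at least 20 tagged endothelial cells were compared. The subcritical shares were 14.3% (4 of 28), 11.1% (7 of 63) and 14.8% (12 of 81) in replicates 1, 2 and 4. The critical shares were 3.51% (2 of 57), 2.94% (1 of 34) and 3.90% (3 of 77) in replicates 2, 3 and 4. Each critical share thus rests on 1 to 3 dividing cells. Uninjured replicates 1 to 4 had 3.33% (1 of 30), 0.885% (3 of 339), 1.87% (2 of 107) and 0.568% (1 of 176). The animals with too few cells, subcritical replicate 3 (3 of 15 cells) and critical replicate 1 (0 of 10), were left out. The critical mean of 3.45% ± 0.480 and the subcritical mean of 13.4% ± 2.00 (SD, n = 3 each) gave a difference of -9.96 points, with an exact permutation p of 0.10, which is the smallest that 3 against 3 animals allow, and an adjusted p of 0.233. The subcritical mean was 11.7 points above the uninjured mean of 1.66% ± 1.24 (n = 4), with the smallest possible exact p of 0.0286 and an adjusted p of 0.20. None of the 7 tests passed after adjustment.

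Hashtagging was uneven, which bears on these shares. Of dividing endothelial cells, 26 of 49 were tagged in the subcritical library (53.1%) and 6 of 23 in the critical library (26.1%), against 34.8% and 30.4% of all endothelial cells. Tagged cells thus gave a larger gap than the whole libraries, where the shares were 9.12% and 3.92%. Only 12.7% of the dividing fibroblasts carried a hashtag in either injured library, so no test between animals was made for them. The part of the uneven tagging in the endothelial result was not tested.

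**Figure D4:**
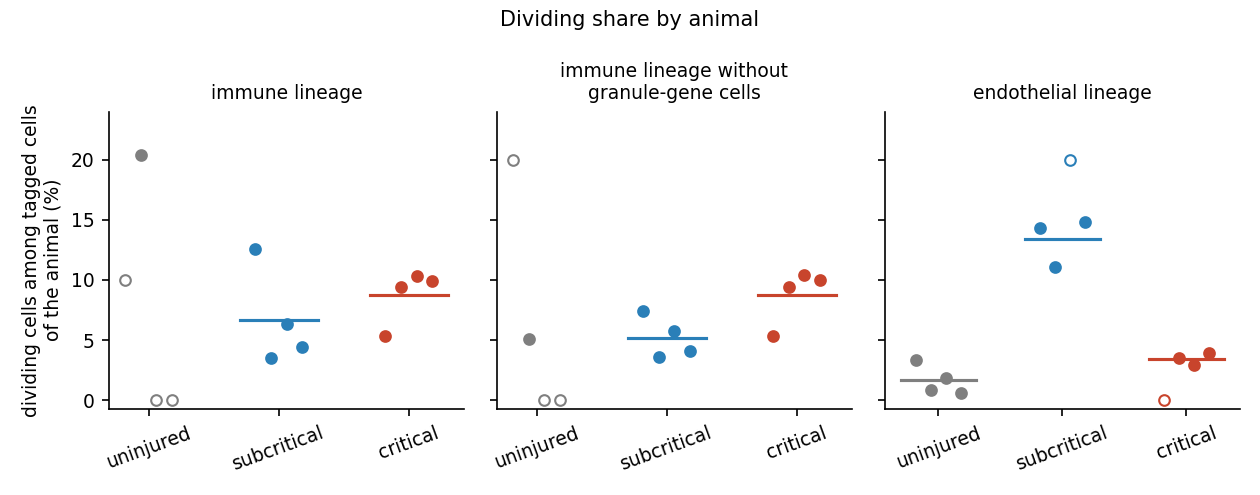
Dividing cells as a percent of the tagged cells of each animal (vertical axis), for immune cells, immune cells without granule-gene cells, and endothelial cells. Filled points have at least 20 tagged cells, open points fewer, and bars are means of the filled points. Endothelial shares of the 3 tested subcritical animals lie between 11.1% and 14.8%, above all tested critical animals.

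Over all tagged cells the dividing share was 4.88%, 7.82%, 1.43% and 0.493% in uninjured replicates 1 to 4, 12.3%, 5.59%, 6.88% and 7.11% in subcritical and 4.35%, 7.57%, 8.91% and 7.83% in critical replicates 1 to 4. The means were 3.65% ± 3.35, 7.97% ± 2.96 and 7.16% ± 1.96 (SD, n = 4 each). Both injured groups overlapped with the uninjured one. The difference from uninjured was 4.32 points for subcritical (exact permutation p = 0.143, adjusted 0.24) and 3.51 points for critical animals (exact permutation p = 0.171, adjusted 0.24). Without granule-gene cells uninjured replicate 2 had 3.46%, and the subcritical animals, between 5.61% and 8.70%, were all above the uninjured ones, between 0.493% and 5.56% (difference 4.13 points, exact permutation p = 0.0286, adjusted 0.10).

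Gene levels in dividing immune cells were compared between critical and subcritical animals on UMIs summed per animal, from 5 to 23 tagged cells each. The edgeR quasi-likelihood test called 0 of 713 genes at an adjusted p under 0.05 (0% of genes higher and 0% lower), with 35 at an unadjusted p under 0.05, and DESeq2 called 1. Single animals moved these counts, with 7 calls without subcritical replicate 2 and 1 without critical replicate 2. With granule-gene cells left out, edgeR called 0 of 603, with 30 at an unadjusted p under 0.05, and DESeq2 called 3. Here edgeR called 4 without critical replicate 1, 7 without critical replicate 2 and 1 without subcritical replicate 3. In the other immune cells of the same animals edgeR called 34 of 3612 genes, 14 higher (0.388%) and 20 lower (0.554%) in critical animals.

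The genes nearest to the threshold in dividing immune cells without granule genes were mt-Co2, mt-Co3 and mt-Co1, all mitochondrial. There mt-Co2, a subunit of cytochrome oxidase, stood at 829, 531, 719 and 622 CPM in critical replicates 1 to 4 and at 136, 33.1, 299 and 178 CPM in subcritical replicates 1 to 4, with no overlap. The log2 difference was 1.91 ± 0.365 (SE, edgeR adjusted p = 0.0519). In the other immune cells of the same animals mt-Co2 differed by 1.03 ± 0.134 (edgeR adjusted p = 2.05e-07). Rps29, a ribosomal protein gene, differed by -0.82 ± 0.235 in dividing cells (adjusted p = 0.369) and by -1.25 ± 0.101 in the others (adjusted p = 7.84e-14). Both genes thus had the same direction in cells outside the cycle. Median mitochondrial shares of the libraries moved the same way, at 0.152% in subcritical and 0.301% in critical dividing cells and 0.192% and 0.383% in the others, and their part in the result was not tested.

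Macrophage genes varied widely among the animals of a group. Spp1 in dividing immune cells without granule genes was 1566, 18249, 1716 and 2727 CPM in critical and 3652, 14150, 1944 and 5044 CPM in subcritical replicates 1 to 4 (log2 difference 0.00 ± 1.03 SE, edgeR adjusted p = 0.999). In each group replicate 2 was far above the rest. Lgals3 was 2026, 9517, 5461 and 8685 CPM in critical and 9893, 13258, 9893 and 15209 CPM in subcritical replicates (-0.89 ± 0.37, adjusted p = 0.87). The subcritical animals were all higher, and the difference did not pass the threshold. For C1qa the critical animals stood at 829, 3208, 2823 and 2263 CPM and the subcritical ones at 1472, 1719, 1595 and 1681 CPM (0.57 ± 0.284, adjusted p = 0.87).

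Most dividing fibroblasts of the injured libraries carried further genes of the lineage, and as a list the genes of activated fibroblasts did not stand apart in them. At least 2 of 8 further fibroblast genes were detected in 47 of 55 dividing fibroblasts of the subcritical and 75 of 79 of the critical library. The 2-fold limit was passed upward by 13.7% and downward by 9.69% of all genes in the subcritical library, and by 8.01% and 7.69% in the critical library. Of 12 matricellular and activated fibroblast genes, 3 and 2 were at least 2-fold higher than in other fibroblasts of the same library and 0 lower, with medians of 0.05 and -0.03 on the log2 scale against 0.13 and 0.04 over all genes. Timp1, an inhibitor of matrix proteases, was 2216 against 641 CPM in the subcritical and 1379 against 648 CPM in the critical library. Acta2, smooth muscle actin and a mark of myofibroblasts, was 964 against 463 CPM and 2394 against 650 CPM. Tnc (tenascin-C) was 1481 against 681 CPM and 1379 against 761 CPM, and it passed 2-fold in the subcritical library only. Members that differed less than 2-fold included some at lower levels in dividing cells. Sparc (osteonectin, a collagen-binding matrix protein) stood at 7618 against 10034 CPM and 9637 against 11780 CPM. Postn (periostin) stood at 3357 against 4150 CPM and 4440 against 5084 CPM, and Aspn (asporin) at 172 against 329 CPM and 423 against 511 CPM.

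Dcn and Lum of the fibroblast genes, Cdkn1c of the cell cycle inhibitors and Igf1 of the growth factors stood lower in dividing than in other fibroblasts. They were picked from those lists after their values were seen and do not stand for the lists. Dcn (decorin, a collagen-binding proteoglycan) was 2445 against 4553 CPM in the subcritical and 1234 against 4253 CPM in the critical library. Lum, a related proteoglycan, was 152 against 324 CPM and 135 against 368 CPM. Cdkn1c, an inhibitor of cyclin-dependent kinases that is high in resting progenitors, was 112 against 364 CPM and 123 against 392 CPM, and Igf1, a growth factor, 411 against 896 CPM and 425 against 881 CPM. Since these 4 genes were picked by their values, their same direction in both injured libraries is part of the choice. The 2-fold limit was missed by Dcn in the subcritical library.

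Set side by side, dividing fibroblasts of the critical library had higher levels of Acta2 and Tagln, genes of the contractile apparatus, than those of the subcritical library. Over all genes, 7.93% were at least 2-fold higher and 10.1% lower in critical dividing fibroblasts. Of the mural and contractile genes, 3 of 5 measured were higher and 0 lower. The rise was not particular to fibroblasts. In dividing endothelial cells the same list summed to 796 CPM in the critical and 239 CPM in the subcritical library. There 2 of 4 measured genes were higher and 1 lower, against 13.1% and 19.9% of all genes. In dividing immune cells without granule genes it summed to 41.6 and 18.7 CPM, with only 1 of its 8 genes measured, which is too little to compare. Acta2 was 2394 and 964 CPM in critical and subcritical dividing fibroblasts (log2 difference 1.31, counting interval 1.09 to 1.55), and Tagln (transgelin) 1023 and 446 CPM (1.19, 0.86 to 1.54). Aspn stood at 423 and 172 CPM. Notch3, a receptor that defines pericytes and smooth muscle, stood at 83.6 and 40.6 CPM, with an interval for the log2 difference of -0.10 to 2.36. Mural genes moved with this difference. The mural lineage genes Rgs5 and Myh11 summed to 204 CPM in critical and 60.9 CPM in subcritical dividing fibroblasts, with means of 1.05 and 0.218 UMIs per cell. In 7 of 79 critical and 0 of 55 subcritical dividing fibroblasts, the lineage with the second highest sum had more than 50% of the fibroblast sum. Their part in the contractile difference was not tested. S phase genes ran the other way, with 0 of 29 measured members higher and 8 lower, among them Mcm5 (a subunit of the replicative helicase) at 36.9 and 107 CPM and Pcna (the sliding clamp of DNA polymerase) at 56.5 and 122 CPM. With 1 library per group these differences carry no replicate check.

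Dividing endothelial cells carried endothelial genes in the injured libraries, and less so in the uninjured one. At least 2 of 8 further endothelial genes were detected in 46 of 49 subcritical and 22 of 23 critical dividing endothelial cells, but in 6 of 11 uninjured ones, of which 2 had at least 2 genes of early B cells and 1 carried granule genes. Against other endothelial cells, 14.8% of genes were at least 2-fold higher and 11.9% lower in the subcritical library, and 14.1% and 17.8% in the critical library. Of 5 measured capillary sprouting genes 0 were higher in either, and 0 and 1 lower. Aplnr, the apelin receptor of sprouting vessels, was 463 against 451 CPM and 394 against 565 CPM. Flt1, a receptor of the growth factor VEGF, was 463 against 879 CPM and 394 against 932 CPM. Kdr, the main signalling receptor of VEGF, was 449 against 544 CPM in the subcritical library, where its counting interval spans no difference, and 339 against 625 CPM in the critical library. Cdkn1a (p21, a cell cycle inhibitor) was 295 against 125 CPM in the subcritical and 220 against 159 CPM in the critical library.

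Between the 2 injured libraries the dividing endothelial cells themselves gave similar levels for most of these genes. Critical over subcritical, 13.1% of genes were at least 2-fold higher and 19.9% lower, and none of the 8 endothelial genes passed that limit either way. Plvap, a protein of fenestrated vessels, was 714 and 702 CPM (log2 difference 0.03, counting interval -0.42 to 0.47), and Ccnd1 (cyclin D1) 485 and 442 CPM (0.13, -0.42 to 0.68). Lyve1, a marker of lymphatic vessels, was 82.4 and 14.0 CPM.

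Cell cycle genes outside the 5 markers were higher in every lineage with enough cells. All measured members of the mitotic spindle and G2/M list were at least 2-fold higher than in other cells of the lineage in both injured libraries (38 of 39 in uninjured immune cells), with 40 and 39 members measured in subcritical and critical immune cells, 38 and 38 in endothelial cells and 40 and 40 in fibroblasts. Median log2 differences in the injured libraries ran from 4.03 in subcritical endothelial cells to 5.22 in subcritical fibroblasts. The S phase list had lower medians, in the injured libraries from 1.76 in subcritical immune cells (17 of 22 measured members past 2-fold) to 2.74 in subcritical fibroblasts (29 of 29), and 3.13 in uninjured immune cells (29 of 29) against 4.36 for the mitotic list there. Since all 5 selecting genes belong to late S, G2 and M phase, this leaning is part of the selection.

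Summed over the 31 S phase genes, dividing immune cells stood at 3407 CPM (Poisson interval 3220 to 3602) in the uninjured, 1812 (1628 to 2012) in the subcritical and 2415 (2239 to 2601) in the critical library. Dividing endothelial cells stood at 3078, 3213 and 2938 CPM. In fibroblasts the subcritical sum of 2825 CPM (2595 to 3070) was above the critical sum of 1999 CPM (1864 to 2141). Immune cells and fibroblasts thus had opposite orders between the injured libraries. Gene by gene, 13.1% of all genes were at least 2-fold higher and 8.95% lower in critical than in subcritical dividing immune cells without granule genes, and of 27 measured S phase genes 8 were higher and 1 lower. The mitotic list summed to 7516, 7157 and 5852 CPM in dividing immune cells of the 3 libraries, to 11783, 6069 and 6178 CPM in endothelial cells, and to 7790 and 6925 CPM in subcritical and critical fibroblasts. Other cells of the same lineages lay between 105 and 492 CPM, except the other immune cells of the uninjured library at 1139 CPM, or 832 CPM without granule-gene cells.

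**Figure D5:**
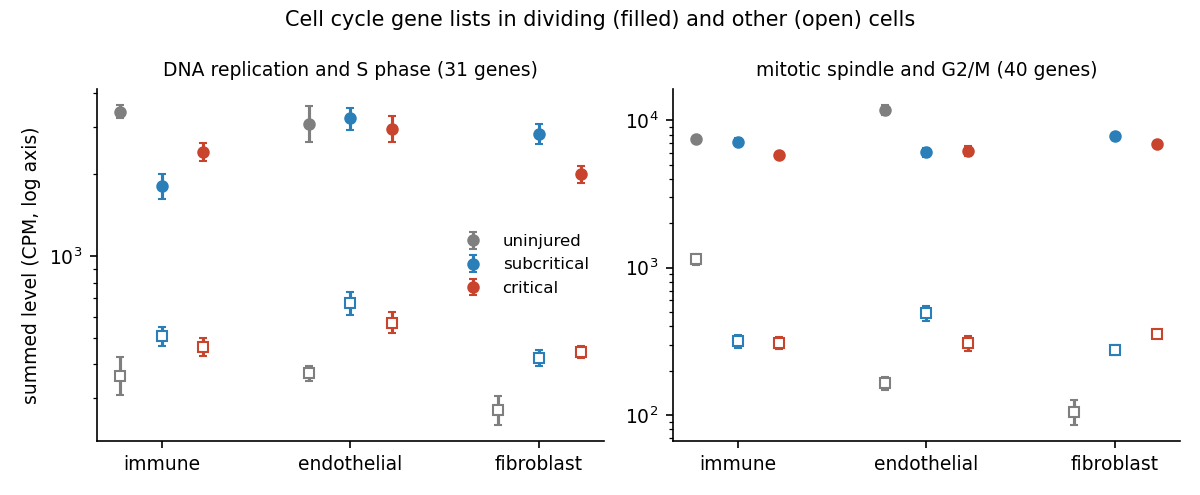
Summed levels (vertical axes, CPM, log scale) of the S phase list, left, and the mitotic list, right, in dividing (filled) and other cells (open) of 3 lineages, with exact 95% Poisson intervals. The dividing immune cells of the uninjured library have the highest S phase sum at 3407 CPM.

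Outside the lists, the genes with the largest difference between dividing and other cells were mostly also of the cell cycle. Esco2, which ties sister chromatids together, was among the 10 leading genes in both injured immune and fibroblast sets and in critical endothelial cells, at 68.6 to 156 CPM in dividing cells and at most 1.17 CPM in others. Aspm, a spindle pole protein, led in both immune and both endothelial sets. The linker histone Hist1h1b stood at 554 CPM in critical dividing immune cells and 304 CPM in subcritical dividing fibroblasts. In the uninjured immune cells, where 23.9% of genes were at least 2-fold higher and 19.7% lower, Pclaf, a partner of the sliding clamp, led at 431 against 2.36 CPM.

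Few myogenic and mural cells were dividing. In the injured libraries the myogenic share was the highest of the 5 lineages, on few cells. Of myogenic cells, 6 of 22 (27.3%, interval 10.7 to 50.2%) were dividing in the subcritical and 5 of 35 (14.3%, 4.81 to 30.3%) in the critical library, and 0 of 3 in the uninjured library. The intervals of the injured libraries overlap, and the critical one covers the immune share of 8.35%. Myod1, the factor that commits satellite cells, was detected in 6 of 6 and 4 of 5 of these cells. It and Cdh15 gave the lineage, so their detection is part of the rule. Their medians were 1 and 0 UMIs in the subcritical and 5 and 1 in the critical cells. Outside the rule, Myog, which marks differentiating myoblasts, was detected in 4 of 6 and 4 of 5, with up to 21 and 20 UMIs in a cell. Pax7, the factor of resting satellite cells, was detected in 1 cell of each library. Des (desmin) reached 9 and 31 UMIs. Dividing mural cells were 1 of 259 (0.386%), 3 of 136 (2.21%) and 7 of 190 (3.68%). All 10 of those in the injured libraries had Rgs5 and Myh11, the genes that gave the lineage. They had 15 to 77 UMIs of Rgs5 in the subcritical and 21 to 44 in the critical cells. Acta2, which the lineage rule did not use, was detected in all 10. Col1a1 was also detected in all 10, with 1 to 9 UMIs.

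Antibody counts, which the selection did not use, gave a separate view of the lineages. CD31, the protein of Pecam1, had a mean of 9.41 counts per dividing endothelial cell in the subcritical and 9.26 in the critical library, against 0.731 and 0.640 on dividing immune cells and 0.509 and 0.269 on dividing fibroblasts. CD11b, an integrin of myeloid cells, had means of 7.37 and 8.24 on dividing immune cells, against 0.796 and 0.522 on endothelial cells and 0.364 and 0.731 on fibroblasts. The IgG1 isotype control stayed between 0.167 and 0.490 on these cells. Both antibodies thus set apart the lineage that the transcripts gave. On dividing endothelial cells CD31 was above the means of 5.28 and 3.82 of other endothelial cells, while the IgG1 control was at 0.490 and 0.435 against 0.529 and 0.386. CD140a, the protein of Pdgfra, did not mark the dividing fibroblasts by its median, a count of 1 in both libraries against 2 and 1 on dividing endothelial cells. By its mean it stood at 1.31 on dividing fibroblasts against 2.18 on dividing endothelial cells of the subcritical library. In the critical library the means were 6.62 and 1.04, so there the mean and the median of the fibroblasts lay far apart.

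On dividing immune cells of the uninjured library the macrophage antibodies were low. F4/80 had a mean of 0.152 counts there, against 0.940 and 1.01 in the subcritical and critical libraries, and CD64, an Fc receptor of macrophages, had 1.42 against 4.63 and 7.48. CD24, a protein of immature blood cells, was highest in the uninjured library at 1.18, against 0.761 and 0.360. F4/80, CD64 and CD24 were not confined to immune cells. In the uninjured library other endothelial cells had means of 4.30 for CD64 and 0.562 for F4/80, with the IgG1 control at 0.786, and dividing endothelial cells had 1.45 for CD24. Subcritical dividing endothelial cells had 3.53 for CD64 and 0.735 for F4/80. These values alone therefore do not give a lineage. Ly-6G, which appears late in neutrophil maturation, was near 0 in all 3, at 0.0303, 0.0448 and 0.0400. CD45, a protein of all white blood cells, had means of only 0.121, 0.194 and 0.360 on dividing immune cells, near those of the isotype control.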

How the data were processed

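The authors deposited raw UMI counts per gene and antibody for 3 pooled libraries (10x 5' v2), made with cellranger 6.0.2 per the file headers. Per the submitters' processing notes, the tools were Cell Ranger and bcl2fastq and the genome build was GRCm39 (mm39). The members, the lists and the tests were chosen with earlier results of these data known. Animals were called from hashtag counts by a mixture of negative binomials per hashtag (counts capped at 50). The lowest count taken as tagged was low, at 2 to 3 in the uninjured, 3 to 7 in the subcritical and 3 to 5 in the critical library. Shares have exact Clopper-Pearson 95% intervals, and sums exact Poisson intervals. Shares between animals (at least 20 tagged cells) were compared by exact permutation with Benjamini-Hochberg adjustment. Genes were tested with edgeR 4.0.16 (DESeq2 1.42.0 as alternative) on counts summed per animal with at least 5 cells, after a test on simulated data. Log2 differences add 1 CPM to each level. Most named genes are the selecting genes, members of fixed lists with the highest level or largest difference, and the 10 leading genes outside the lists. Others were named outside this rule, among them Ccr2, the mt-Co genes, Rps29, Apoe and Col2a1. Granule, erythroid, early B, T cell and complement-rich macrophage genes were added after the data were seen. Antibody counts leave out cells whose counts are mostly 1 antibody aggregate. No doublet caller was run, and cells with several hashtags were kept. Hashtags marked individual animals per the labels' protocols, and each hashtag was taken as 1 animal. Between 36.4% and 43.1% of cells could be traced to a hashtag.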

Additional observations from a re-analysis of the deposited data

Results flagged for a closer look

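Among the 4 animals of the subcritical pool, replicate 1 stood apart in the share of tagged cells that carried granule genes, at 5.74%, against 0.329%, 0.459% and 0.459% in replicates 2 to 4. A gap of this size relative to the range is expected by chance in about 1 of 20 groups, and 9 groups were looked at. The uninjured animals fell into 12.2% and 12.6% for replicates 1 and 2 and 0 for replicates 3 and 4, and the critical animals lay between 0 and 0.505%.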

How the results depend on the processing

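Depth, the number of markers required and the granule-gene cells moved the shares most. In the order uninjured, subcritical, critical, the dividing share of a library was 1.99%, 5.30% and 3.87% with cells thinned to 1000 UMIs, 1.28%, 2.00% and 1.52% thinned to 500 UMIs, 2.14%, 4.20% and 4.33% with at least 3 markers and 5.19%, 11.5% and 11.8% with at least 1. Within lineages, thinning to 1000 UMIs gave 8.43%, 5.25% and 6.04% of immune cells and 3.32% and 2.29% of subcritical and critical fibroblasts, and fibroblasts became 27.0% of the dividing cells of the critical library. At least 3 markers gave 4.56% of immune, 5.40% of endothelial and 3.61% of fibroblast cells in the subcritical library, and 6.01%, 3.41% and 3.94% in the critical library. Without granule-gene cells, an alternative chosen after seeing the data, the uninjured library had a dividing share of 1.52%, an immune part of 18.8%, an endothelial part of 31.2% and a fibroblast part of 0%, with 4.80% of immune cells and 0% of fibroblasts dividing. In the subcritical library the immune part was then 28.4%, and 5.01% of immune cells were dividing. Of 99 such alternative values for shares, 31 moved beyond their counting interval.

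The difference of critical minus subcritical animals over all tagged cells, -0.807 points, changed sign in 4 of its alternatives. It was 0.635 without subcritical replicate 1, 0.131 without critical replicate 1 (range -1.60 to 0.635 when single animals were left out), 1.95 when the leading hashtag had to hold 70% of hashtag counts and 0.322 without granule-gene cells. The other 77 alternative values between animals kept their direction, and none passed the threshold. The tests between endothelial shares could not be made at the 70% hashtag limit. There only replicate 2 of each injured group kept at least 20 tagged endothelial cells, with 6.38% (3 of 47) in the subcritical and 4.17% (1 of 24) in the critical group. Of the animals with fewer cells, subcritical replicates 1, 3 and 4 had 1 of 2, 1 of 5 and 0 of 8. Critical replicates 3 and 4 had 0 of 6 and 1 of 8, so the injured groups overlapped there, on few cells. For genes in dividing immune cells, where edgeR called 0, DESeq2 called 1, DESeq2 without granule-gene cells 3, edgeR with no filter on low counts 6 and edgeR at the 70% hashtag limit 3. Leaving out single animals gave 0 to 7 calls, and with granule-gene cells also left out 4 without critical replicate 1, 7 without critical replicate 2 and 1 without subcritical replicate 3. The cause of these changes was not tested, except that thinning and stricter marker rules leave fewer UMIs and markers to detect. No paired analysis was possible because hashtag numbers name different animals in each pool.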
